A study of Mus musculus with 6 samples.

Results

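Genes of DNA replication and mitosis were examined in the primary somatosensory cortex of C57BL/6 mice aged 14 days. The 41 genes were taken from a fixed list of symbols of replication and mitosis genes, and all 41 were found among the 47794 rows of the deposited table. Both groups carried the β-cat lox(ex3) allele, in which exon 3 of the β-catenin gene is flanked by recombination sites. The control group (3 libraries) had this allele alone, and the overexpression group (3 libraries) also carried Nex-Cre. Nex-Cre is known to recombine in postmitotic excitatory neurons of the forebrain, and loss of exon 3 removes the sites that target β-catenin for degradation. The labels give neither the sex nor the copy number of the allele, and they do not say whether the libraries of a group are from different animals. The p-values therefore refer to the spread of these libraries, which may be technical.

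The cell cycle is driven by kinases that are switched on by cyclins. D-type and E-type cyclins lead cells from G1 into DNA synthesis, where the MCM helicase opens origins, and A-type and B-type cyclins with Cdk1 lead them through mitosis. At this age cortical neurons have left the cycle, and the cells known to divide in cortex are mainly glia, above all oligodendrocyte precursors, together with some vascular and immune cells. The tissue was not sorted, so a level here is that of all cells together, and fewer dividing cells cannot be told apart from less RNA per dividing cell.

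For each gene and group the table gives 1 mean of scaled reads: reads of each library were divided by that library's scaling factor and then averaged. These means could be matched to whole reads of 3 libraries, which gave library values for 38 of the 41 genes in both groups. Within a group, A names the library with the largest scaling factor and C the one with the smallest. The labels' replicate numbers could not be assigned to these letters. Group totals were 19016749 scaled reads in control and 18602579 in overexpression cortex. Markers of cortical excitatory neurons were abundant, with Camk2a at 66769 in control and 63088 in overexpression cortex, and no marker of any of the 9 cell type lists was at 0. Control library B stood apart for meningeal and choroid plexus markers, whose recovered sum (5 of 8 markers) was 910.5 there and 198 to 322 in the other 5 libraries.

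No cell cycle gene differed between the groups at the threshold of either test. In the authors' deposited table, 0 of 41 genes had an adjusted p under 0.05, where 0% of the 30152 tested genes did, and 0 had an unadjusted p under 0.05, where 0.534% of all tested genes did. By limma on the recovered libraries, 0 of 38 had an adjusted p under 0.05 (0% of 9777 genes) and 0 had an unadjusted p under 0.05 (2.11% of 9777 genes). Group means lay within 1.2-fold of each other for 35 of the 41 genes, and the other 6 were higher in overexpression cortex. These 6 were Cdc45, Ccnb2, Kif11, Plk1, Prc1 and Rrm2. The overexpression mean was the higher of the pair for 27 genes (65.9%) and the lower for 14. Among all 17095 genes with a mean of at least 10 the overexpression mean was higher for 46.8%, and among the 9777 recovered genes, which are less abundant, for 54.2%. The median log2 fold change of group means was 0.07 over the 41 genes and -0.01 over all genes with a mean of at least 10. The 95% interval of a limma fold change reached a median of 1.54-fold to either side for the 14 genes with a mean under 50 and 1.26-fold for the 14 at 100 or more.

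**Figure D1:**
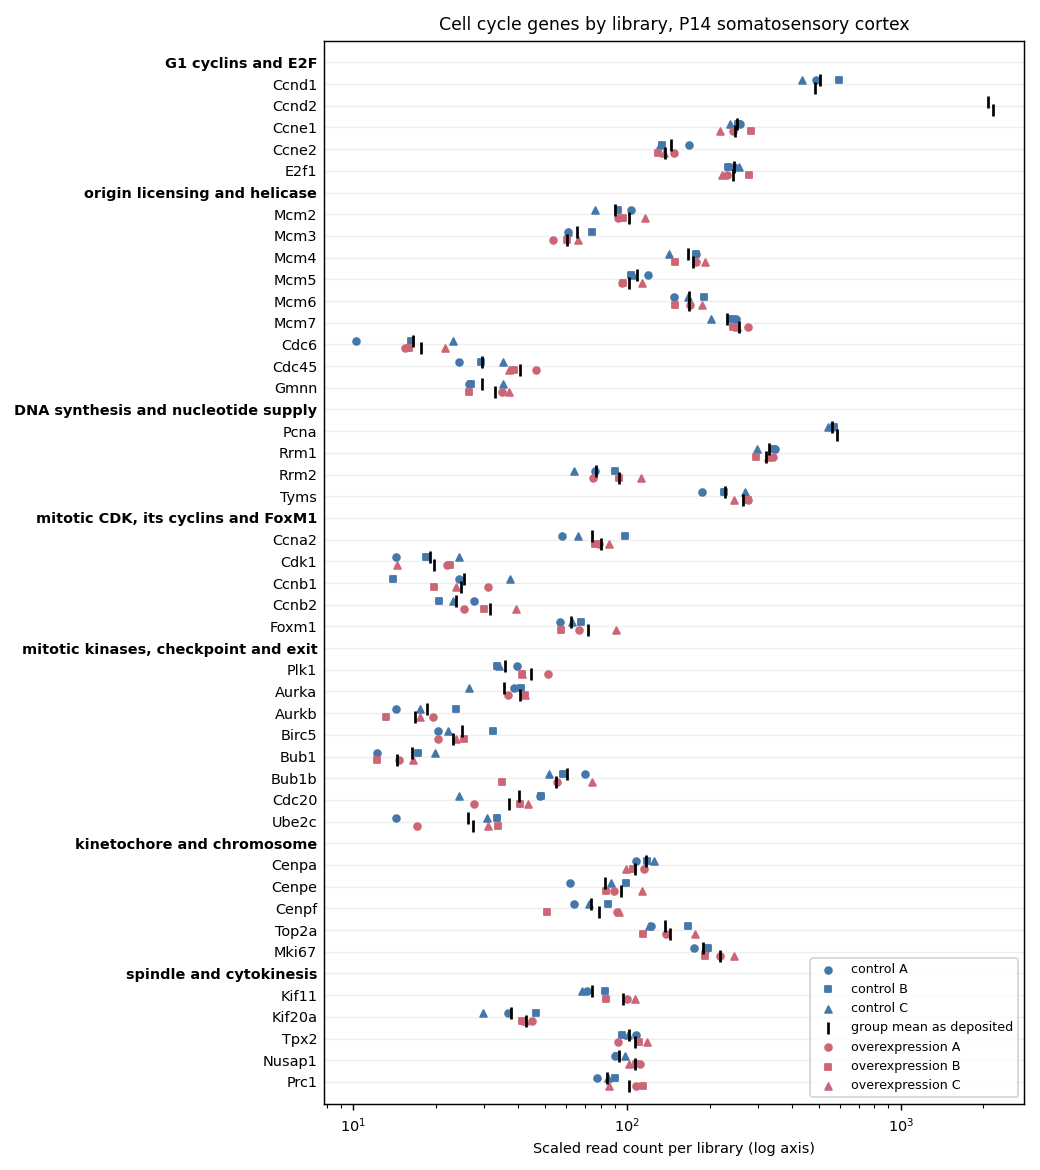
Scaled read count (log axis) of each of the 41 genes in the recovered control (blue) and overexpression (red) libraries, with symbols for libraries A, B and C and black bars for the deposited group means. Ccnd2 has group means alone, and Ccnd1 and Pcna have no overexpression library values. Red and blue symbols overlap for all recovered genes but Cdc45, Plk1, Kif11 and Nusap1.

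Library values of the 2 groups did not overlap for 4 genes, all of them higher in overexpression cortex. The 4 were Cdc45, Plk1, Kif11 and Nusap1, which is 10.5% of the 38 recovered genes, and 0 genes lay wholly lower. Among all 9777 recovered genes 4.40% lay wholly higher and 2.75% wholly lower in overexpression cortex. With each library rescaled to the median ratio of recovered genes, 2 of the 38 genes lay wholly higher, Cdc45 and Nusap1. The share over all recovered genes was not counted on that scale, so the shares above hold only before rescaling. With 3 libraries against 3, an exact two-sided permutation test cannot give a p below 0.100 for any single gene.

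Promoters of these genes are known to carry a cell cycle homology region (CHR), through which the MuvB complex holds mitotic genes off in resting cells, with CCAAT boxes bound by NF-Y before it, or E2F motifs in replication genes. RefSeq promoters on GRCm38.p6 (250 bases before to 50 after the start) were found for 31 of the 41 genes, in 33 entries. They were searched on both strands for the CHR words TTTGAA and TTCGAA, for CCAAT, and for the E2F words TTTGGCGC, TTTCCCGC, TTTGGCGG and TTTCCCGG. A CHR word stood in 54.5% of the 33 promoters and in 19.2% of all 32851 promoters of this length. CCAAT stood in 81.8% and 37.4%, an E2F word in 18.2% and 3.32%, and a CHR word together with CCAAT in 54.5% and 7.52%. A CHR word lay within 50 bases of the start in 14 genes, and a CCAAT in the 100 bases before it in 22. E2F words were found in Mcm3, Mcm5, Mcm6, Mcm7, Cdc6 and Birc5, of which 5 serve replication. A match is a stretch of letters and not a measured binding site.

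**Figure D2:**
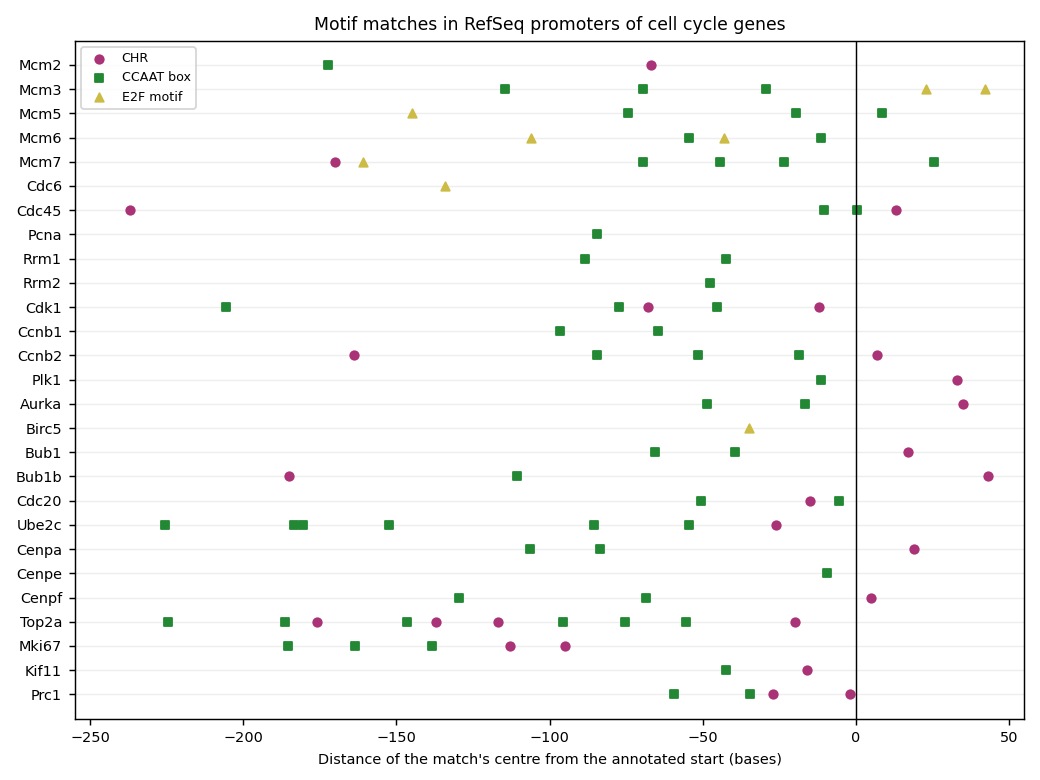
Distance in bases of each motif match from the annotated start for the 27 genes with a match, with circles for CHR words, squares for CCAAT and triangles for E2F words. CHR words of mitotic genes gather near the start, mostly downstream of a CCAAT, and E2F words are seen mainly in the MCM genes at the top. The 2 entries each of Mcm7 and Prc1 share a row.

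Promoters of 6 genes that hold searched words are printed here to show both designs. Matched words are in capitals, as read 5′ to 3′ on the strand of the gene. Mcm6 (chr1:128359656-128359955, minus strand) has E2F words and CCAAT boxes, the latter as ATTGG on the strand shown. Ccnb2 (chr9:70421505-70421804, minus strand) and Mki67 (chr7:135716330-135716629, minus strand) have CCAAT boxes and CHR words. Plk1 (chr7:122159185-122159484, plus strand), Cdc45 (chr16:18811923-18812222, minus strand) and Kif11 (chr19:37376132-37376431, plus strand) were chosen after their values were seen, as genes whose library groups did not overlap, and each has both a CCAAT and a CHR word. In Nusap1, the remaining gene of that kind, no searched word was found in this window. The G1 genes with a promoter entry, Ccne1 and E2f1, had no searched word either.
Mcm6: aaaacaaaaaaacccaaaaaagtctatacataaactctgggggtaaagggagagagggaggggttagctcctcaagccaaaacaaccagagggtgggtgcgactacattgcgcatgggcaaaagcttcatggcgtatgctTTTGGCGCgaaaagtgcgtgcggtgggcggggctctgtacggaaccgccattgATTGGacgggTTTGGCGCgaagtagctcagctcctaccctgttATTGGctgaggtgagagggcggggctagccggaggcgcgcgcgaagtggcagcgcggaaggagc
Ccnb2: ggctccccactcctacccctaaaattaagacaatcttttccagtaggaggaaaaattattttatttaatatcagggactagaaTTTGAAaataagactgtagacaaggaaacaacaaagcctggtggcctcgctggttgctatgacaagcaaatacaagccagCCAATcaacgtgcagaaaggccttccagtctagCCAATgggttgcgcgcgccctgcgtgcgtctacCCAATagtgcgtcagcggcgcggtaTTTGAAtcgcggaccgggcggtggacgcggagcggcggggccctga
Mki67: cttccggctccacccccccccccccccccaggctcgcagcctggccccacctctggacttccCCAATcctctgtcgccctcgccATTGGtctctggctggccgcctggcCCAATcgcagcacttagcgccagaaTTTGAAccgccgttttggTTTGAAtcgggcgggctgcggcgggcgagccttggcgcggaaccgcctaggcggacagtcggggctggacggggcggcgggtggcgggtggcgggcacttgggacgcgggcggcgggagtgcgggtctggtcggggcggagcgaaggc
Plk1: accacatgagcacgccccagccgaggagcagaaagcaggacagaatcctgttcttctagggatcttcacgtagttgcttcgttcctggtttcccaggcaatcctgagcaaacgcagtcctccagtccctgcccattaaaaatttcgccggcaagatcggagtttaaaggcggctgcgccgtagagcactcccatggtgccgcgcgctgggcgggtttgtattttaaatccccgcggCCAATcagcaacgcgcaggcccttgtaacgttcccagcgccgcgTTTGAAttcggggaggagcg
Cdc45: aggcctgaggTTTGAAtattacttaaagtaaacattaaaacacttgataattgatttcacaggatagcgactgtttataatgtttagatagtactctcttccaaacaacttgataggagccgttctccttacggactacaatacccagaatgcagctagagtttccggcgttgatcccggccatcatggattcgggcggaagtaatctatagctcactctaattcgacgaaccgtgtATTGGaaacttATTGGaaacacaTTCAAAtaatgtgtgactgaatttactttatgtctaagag
Kif11: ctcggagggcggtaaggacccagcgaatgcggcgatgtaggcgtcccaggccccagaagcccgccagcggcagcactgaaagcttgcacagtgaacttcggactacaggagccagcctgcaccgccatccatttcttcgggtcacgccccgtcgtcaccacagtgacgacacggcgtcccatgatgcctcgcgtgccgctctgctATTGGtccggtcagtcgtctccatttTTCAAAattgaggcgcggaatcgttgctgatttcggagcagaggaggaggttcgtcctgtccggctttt

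The G1 cyclins and E2f1 differed least. Ccnd2, a D-type cyclin also present in cells that no longer divide, had the highest mean of all 41 genes, 2081 in control and 2159 in overexpression cortex, and its library values could not be recovered. Ccnd1, the other D-type cyclin of the list, had a group mean of 506 in control and 486 in overexpression cortex. Its control libraries A, B and C were at 488, 594 and 436, so control B alone spread further from control C than the group means differed. Ccne1, an activator of Cdk2, was at 259, 255 and 238 in control libraries and at 243, 283 and 218 in overexpression libraries. Its overexpression libraries lay on both sides of all control libraries. E2f1, the transcription factor that RB restrains until S phase, was at 245, 234 and 257 in control libraries and at 232, 278 and 223 in overexpression libraries, again with overlap. Ccne2, the second E-type cyclin, was at 168, 134 and 132 in control libraries and at 148, 129.9 and 136 in overexpression libraries. The 95% limma interval of the log2 fold change ran from -0.29 to 0.25 for Ccne1, from -0.28 to 0.25 for E2f1 and from -0.39 to 0.27 for Ccne2. Of these 5 genes 1 had the higher and 4 the lower mean in overexpression cortex, with a median log2 fold change of -0.01. The median of the 3 recovered ones ran from -0.11 without overexpression B to 0.05 without overexpression C.

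Among the 9 genes of origin licensing and the replicative helicase, 7 had a higher and 2 a lower mean in overexpression cortex, and the median log2 fold change was 0.10. The 6 MCM subunits form the ring of the helicase. Mcm7 was at 250.5, 241 and 203 in control libraries and at 276, 244 and 252 in overexpression libraries, with overlap through overexpression B. Mcm4 was at 179, 179 and 142 in control libraries and at 178, 149.6 and 193 in overexpression libraries. Mcm6 was at 148, 191 and 167 in control libraries and at 169, 149 and 187 in overexpression libraries. Its groups covered the same range, and its limma log2 fold change was 0.00 with a 95% interval from -0.32 to 0.33. Mcm2 was at 103, 92.9 and 76.1 in control libraries and at 92.9, 96.9 and 116 in overexpression libraries. Mcm5 and Mcm3 had the lower means in overexpression cortex, with log2 fold changes of -0.09 and -0.12. Mcm5 was at 119, 103 and 105 in control libraries and at 96.2, 96.9 and 113 in overexpression libraries, and Mcm3 at 61.1, 74.5 and 60.7 and at 53.8, 60.2 and 66.2. The ring thus held subunits on both sides of 0, and none of the 6 separated the groups.

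Cdc45, which joins the MCM ring and the GINS complex to make the active helicase, showed the largest log2 fold change of the 41 genes. It was at 24.4, 29.2 and 35.3 in control libraries and at 46.4, 38.6 and 37.2 in overexpression libraries, so the lowest overexpression library lay just above the highest control library. Its group means were 29.6 and 40.8. The limma log2 fold change was 0.46 ± 0.24 (SE), with a 95% interval from -0.06 to 0.97 and an adjusted p of 0.999. The authors' deposited table gave it p = 0.134 and an adjusted p of 1. Cdc6, which loads the MCM ring and is removed once S phase starts, was at 10.2, 16.2 and 23.2 in control libraries and at 15.5, 16.0 and 21.7 in overexpression libraries. Gmnn, which encodes geminin, the inhibitor of licensing, was at 26.5, 27.0 and 35.3 in control libraries and at 35.0, 26.4 and 37.2 in overexpression libraries. Both overlapped over most of their range. The median of these 9 genes was -0.03 without overexpression C, 0.06 without control C and 0.17 without overexpression B, against 0.10 with all libraries.

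Of the 4 genes of DNA synthesis and nucleotide supply, 3 had a higher and 1 a lower mean in overexpression cortex, with a median log2 fold change of 0.15. Pcna, the sliding clamp of the polymerases, had a mean of 559 in control and 585 in overexpression cortex, and its control libraries were close together at 566, 569 and 540.4. Its overexpression mean lay above the 450 up to which overexpression reads were sought, so no library values are given there. Rrm1, the large subunit of ribonucleotide reductase, was at 347, 341 and 299 in control libraries and at 339.8, 296 and 327 in overexpression libraries. Rrm2, the small subunit that cells make in S phase, was at 76.4, 90.7 and 64.0 in control libraries and at 75.0, 93.2 and 112 in overexpression libraries. Overexpression C was the highest library for Rrm2 and overexpression A lay within the control range. Tyms, the enzyme that makes thymidylate, was at 188, 225 and 270.2 in control libraries and at 277, 276 and 246 in overexpression libraries. Its log2 fold change was 0.24 ± 0.14 (SE) by limma, with a 95% interval from -0.07 to 0.55 and an adjusted p of 0.999. Only control C, the highest control library, reached into the overexpression range, and with 1 library left out the log2 fold change ran from 0.11 to 0.37.

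The mitotic kinase Cdk1 and its partners were low and overlapped in every case. Cdk1 was at 14.3, 18.4 and 24.3 in control libraries and at 22, 22.6 and 14.5 in overexpression libraries. Ccna2, the cyclin of S phase and G2, was at 58.0, 98.3 and 66.2 in control libraries and at 79.0, 76.2 and 85.9 in overexpression libraries, with control B the highest of all 6. Ccnb1 was at 24.4, 14.0 and 37.5 in control libraries and at 31.0, 19.8 and 23.8 in overexpression libraries. Its log2 fold change was -0.03 from group means and 0.05 by limma, so its direction hung on the scale used. Ccnb2, the other mitotic B-type cyclin, was at 27.5, 20.5 and 23.2 in control libraries and at 25.3, 30.1 and 39.3 in overexpression libraries. Its log2 fold change of 0.38 ± 0.26 (SE) by limma had a 95% interval from -0.19 to 0.96 and an adjusted p of 0.999, and overexpression A lay below control A. Foxm1, the transcription factor of the G2 and M program, was at 57.0, 68.0 and 62.9 in control libraries and at 66.8, 57.4 and 91.1 in overexpression libraries, with overexpression C high and overexpression B within the control range. The median log2 fold change of the 5 genes was 0.12. It was -0.03 without control A, 0.07 without overexpression C, 0.26 without control B and 0.27 without control C.

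Mitotic kinases, checkpoint genes and genes of mitotic exit pointed both ways, with 3 of 8 means higher and 5 lower in overexpression cortex and a median log2 fold change of -0.11. Plk1, a kinase of mitotic entry and spindle assembly, was at 39.7, 33.5 and 34.2 in control libraries and at 51.3, 41.4 and 41.4 in overexpression libraries. The groups of Plk1 did not overlap, by a margin smaller than the spread within either group, and overlapped after rescaling (39.8 in overexpression B, 40.6 in control A). Its limma log2 fold change was 0.31 ± 0.21 (SE), with a 95% interval from -0.16 to 0.78 and an adjusted p of 0.999. Aurka, the kinase of the spindle poles, was at 38.7, 41 and 26.5 in control libraries and at 36.7, 42.4 and 42.4 in overexpression libraries, alike but for the low value of control C. Aurkb, the kinase of the chromosomal passenger complex, was at 14.3, 23.8 and 17.6 in control libraries and at 19.6, 13.2 and 17.6 in overexpression libraries. Birc5, which encodes survivin of the same complex, was at 20.4, 32.4 and 22.1 in control libraries and at 20.4, 25.4 and 23.8 in overexpression libraries. Aurkb and Birc5 thus shared a high value in control B and had log2 fold changes of -0.15 and -0.10 from group means.

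The spindle checkpoint genes Bub1 and Bub1b both had the lower mean in overexpression cortex. Bub1 was at 12.2, 17.3 and 19.9 in control libraries and at 14.7, 12.2 and 16.6 in overexpression libraries. Bub1b, which encodes BubR1, was at 70.3, 58.3 and 51.8 in control libraries and at 55.4, 34.8 and 74.5 in overexpression libraries, and its overexpression libraries held both the lowest and the highest value. Cdc20, the activator of the anaphase-promoting complex, was at 47.9, 48.6 and 24.3 in control libraries and at 27.7, 40.5 and 43.5 in overexpression libraries. Ube2c, the ubiquitin-conjugating enzyme of that complex, was at 14.3, 33.5 and 30.9 in control libraries and at 17.1, 33.9 and 31.0 in overexpression libraries. Library A was thus the lowest for Ube2c in both groups, and the other libraries were alike. Leaving out control B moved the median of the 8 genes from -0.11 to 0.10, and leaving out overexpression A moved it to 0.02. It was -0.04 without overexpression B.

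Of the kinetochore and chromosome genes, 4 had a higher and 1 a lower mean in overexpression cortex, with a median log2 fold change of 0.09. Mki67, which encodes the surface protein of mitotic chromosomes used as the standard marker of dividing cells, was at 176, 198 and 192 in control libraries and at 218, 193 and 245 in overexpression libraries. Overexpression B lay inside the control range and the other overexpression libraries above it. In limma its log2 fold change was 0.21 ± 0.13 (SE), with a 95% interval from -0.08 to 0.50 and an adjusted p of 0.999, and with 1 library left out it ran from 0.12 to 0.30. Top2a, the topoisomerase that untangles chromosomes, was at 122, 167 and 120.2 in control libraries and at 139, 114 and 177 in overexpression libraries, each group with 1 high library. Cenpf and Cenpe encode proteins of the outer kinetochore. Cenpf was at 64.1, 85.3 and 72.8 in control libraries and at 92.1, 50.8 and 93.1 in overexpression libraries, and overexpression B was the lowest of all 6. Cenpe was at 62.1, 99.4 and 87.1 in control libraries and at 89.6, 83.8 and 113 in overexpression libraries. Cenpa, the histone variant of centromeres, was the member with the lower overexpression mean, at 108, 118 and 125 in control libraries and at 115, 105 and 99.3 in overexpression libraries. The median of the 5 genes was -0.05 without overexpression C and -0.004 without control A, and 0.24 without control B and 0.29 without overexpression B.

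Spindle and cytokinesis genes were the role in which every mean was higher in overexpression cortex, 5 of 5, with a median log2 fold change of 0.20. Of 38 other mitotic genes outside the 41, 19 had a higher and 19 a lower mean, with a median of -0.01. Kif11, the motor that pushes spindle poles apart, was at 71.3, 83.2 and 68.4 in control libraries and at 100.2, 83.8 and 107 in overexpression libraries. Overexpression B lay above control B by under 1 scaled read, and below it after rescaling (80.5 and 82.8). The limma log2 fold change of Kif11 was 0.38 ± 0.18 (SE), with a 95% interval from -0.01 to 0.76 and an adjusted p of 0.999. The authors' deposited table gave it p = 0.0835, the lowest of the 41 genes, and an adjusted p of 1. Nusap1, a microtubule-binding protein of the spindle, was at 90.6, 91.8 and 98.1 in control libraries and at 111, 108 and 102 in overexpression libraries. Its values lay close together within each group, with 93.5 ± 4.05 (SD, n = 3) in control and 107 ± 4.29 (SD, n = 3) in overexpression cortex. These variances are below the mean, where counting error alone gives a variance near the mean. The closeness in 3 libraries therefore cannot be read as a trait of the gene. The limma log2 fold change of Nusap1 was 0.19 ± 0.15 (SE). The 95% limma interval ran from -0.14 to 0.53, with an adjusted p of 0.999.

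Prc1, which bundles microtubules at the midzone, was at 77.4, 90.7 and 84.9 in control libraries and at 108, 114 and 85.9 in overexpression libraries, with overexpression C inside the control range. Tpx2, the spindle activator of Aurora A, was at 108, 96.1 and 101 in control libraries and at 92.9, 110.1 and 118 in overexpression libraries. Kif20a, a motor of cytokinesis, was at 36.7, 46.4 and 29.8 in control libraries and at 44.8, 41.4 and 42.4 in overexpression libraries. Both overlapped, Kif20a through the high control B. Summed over the 5 genes, the libraries were at 384, 408 and 383 in control and 456, 457 and 455 in overexpression cortex, and after rescaling at 392, 406 and 378 against 457, 439 and 454. The median stayed positive without any 1 library, between 0.17 without overexpression A and 0.34 without control B. Since the genes were grouped with earlier results of these data known, the sum is a description and carries no p. How often sums of 5 other genes lie apart in this way was not counted.

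**Figure D3:**
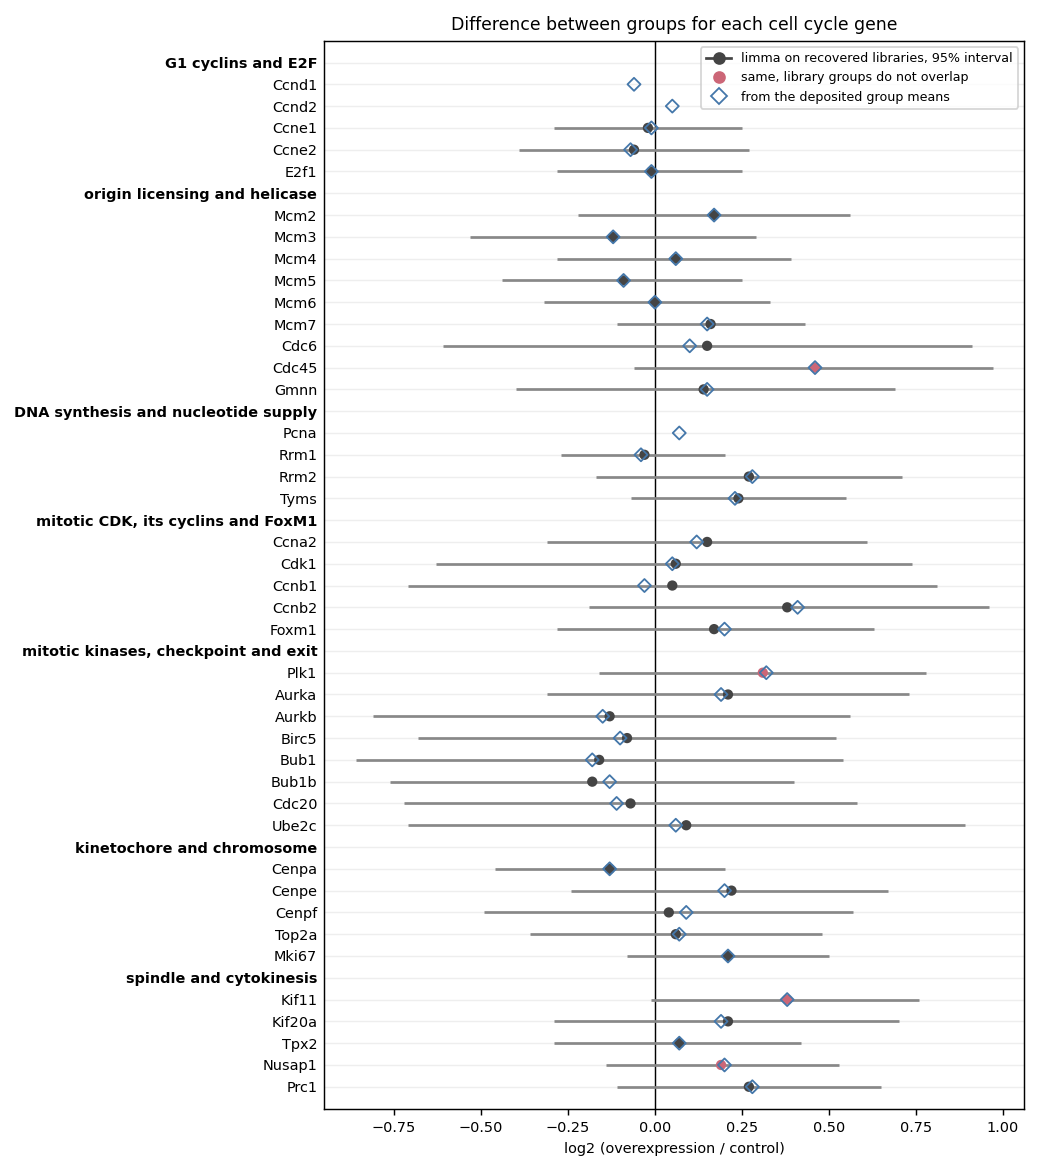
Log2 fold change of overexpression over control for each gene, by limma on recovered libraries with its 95% interval (filled circles, red where the library groups do not overlap) and from the deposited group means (open diamonds). Every interval spans 0, and that of Kif11 starts closest to it, at -0.01.

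The median level of the genes differed between single libraries. For each of the 38 recovered genes the deviation from its own mean over the 6 libraries was taken on the log2(value + 1) scale. The median deviation was -0.14 in control A, 0.04 in control B and -0.07 in control C. In overexpression A, B and C it was 0.04, -0.01 and 0.14. Over all 9777 recovered genes the same medians stayed between -0.03 and 0.06. A median of 38 genes varies more by number alone, and no other set of 38 genes was compared. Overexpression C had 31 of 38 genes above their own mean, where 50.8% of all recovered genes were above theirs. Control C had 11 above and 27 below, where 53.9% of all were above. Overexpression B had 19 on either side, where 59.3% of all were above. The largest deviations were thus those of overexpression C above and control A below, while control B lay above overexpression B. The median log2 fold change of the 38 genes was 0.079 with all libraries and stayed above 0 without any 1 of them. It was 0.028 without overexpression C, 0.032 without control A and 0.063 without control C. Without overexpression A, control B or overexpression B it was 0.102, 0.156 and 0.158.

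**Figure D4:**
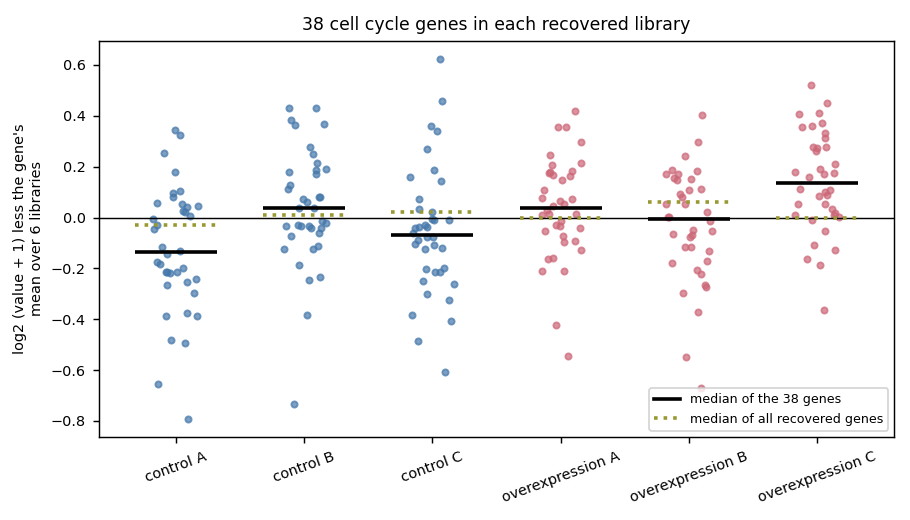
Deviation of each of the 38 recovered genes from its own mean over the 6 libraries, on the log2(value + 1) scale, in control (blue) and overexpression (red) libraries. Black lines are medians of the 38 genes and dotted lines medians of all recovered genes. The black line is lowest in control A (-0.14) and highest in overexpression C (0.14).

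Levels between genes were compared as scaled reads per kilobase of merged exon, averaged over the groups. On this scale Pcna was highest at 238 and Ccnd2 next at 225, followed by Ccnd1 at 105, Ccne1 at 93.7 and E2f1 at 77.7. Of the mitotic genes Nusap1 was highest at 24.7 per kilobase, with Tpx2 at 22.3, Cdc20 at 20.7 and Mki67 at 20.2. The lowest were Cdc6 at 3.28, Bub1 at 3.55 and Cdk1 at 3.92. Each gene of the G1 and DNA synthesis roles thus stood above each mitotic gene in level. Kif11, at 11.5 per kilobase, was in the lower part of the list. Within groups the variance between libraries was a median of 1.74 times the mean for the 38 genes and 1.97 times for all recovered genes, where counting error alone gives about 1.

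Of 133 further cell cycle genes in 8 lists, 72 had a higher and 61 a lower mean in overexpression cortex, with a median log2 fold change of 0.01, and 0 passed the threshold of either test. The 38 other mitotic genes had 19 higher and 19 lower, with a median of -0.01. That list was led by Cit, the gene of citron kinase, at 4984 in control and 4521 in overexpression cortex. The value of Cit counts all transcripts of the gene in all cells, so it is not a level of the mitotic kinase alone. The 24 genes of polymerases and the replication fork had 15 higher and 9 lower, with a median of 0.01, and Rfc1, the large clamp loader subunit, at 787 and 751. For 7 inhibitors of cyclin-dependent kinases the median was 0.01, with Cdkn1b (p27) at 1041 and 1039. The G1 kinases, RB family and other E2F genes, 16 in all, had a median of 0.02, with Tfdp1, the partner of E2F factors, at 994 and 1032. MuvB and B-Myb genes, 6 in all, had a median of -0.07, with Rbbp4 at 1698 and 1617. Condensin and cohesin genes (13) had a median of -0.02, with Rad21 at 2011 and 1977, and those of the anaphase-promoting complex (13) a median of -0.01, with Anapc5 at 4362 and 4346. These 133 genes thus showed no shared direction in the unsorted tissue, where levels are of all cells and not of dividing cells alone. No difference between lists was tested.

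By limma 4 of the 92 fitted genes of these lists had an unadjusted p under 0.05, where 2.11% of all 9777 fitted genes did. By the authors' test it was 2 of the 133 genes, where 0.534% of all tested genes had an unadjusted p under 0.05. These 2, Gins1 and Cdc7, were among the 4 found by limma. Gins1, a subunit of the GINS part of the helicase, was at 10.2, 8.64 and 7.72 in control libraries and at 21.2, 16.0 and 22.8 in overexpression libraries, with no overlap. Its limma log2 fold change was 1.08 ± 0.33 (SE), with an adjusted p of 0.999. The authors' deposited table gave it p = 0.0184 and an adjusted p of 1. Cdc7, the kinase that fires origins, was at 286, 339 and 339 in control libraries and at 388, 395 and 398 in overexpression libraries, again without overlap. It had a limma log2 fold change of 0.30 ± 0.10 (SE), with an adjusted p of 0.999, beside p = 0.0423 in the authors' deposited table. Both belong to the list of origin recognition, GINS and replication kinase genes, of which 11 of 16 had the higher mean in overexpression cortex, with a median of 0.04 and Orc4 as the most abundant at 808 and 813. The kinase inhibitor Cdkn2c (p18) was at 58.0, 57.2 and 56.2 in control libraries and at 73.3, 80.0 and 74.5 in overexpression libraries, with a limma log2 fold change of 0.40 ± 0.17 (SE) and an adjusted p of 0.999. Anapc10 was at 146, 116 and 122 in control libraries and at 162, 167 and 152 in overexpression libraries. Its limma log2 fold change was 0.33 ± 0.15 (SE), with an adjusted p of 0.999. Library values were recovered for 96 genes of these lists. Of them 6 lay wholly higher and 3 wholly lower in overexpression cortex, where 4.40% and 2.75% of all 9777 fitted genes did. The lower ones were 1 gene of polymerases and the replication fork and 2 other mitotic genes. The 96 genes include some with a mean under 10, which the 9777 do not, so the 2 sets are not filtered alike.

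**Figure D5:**
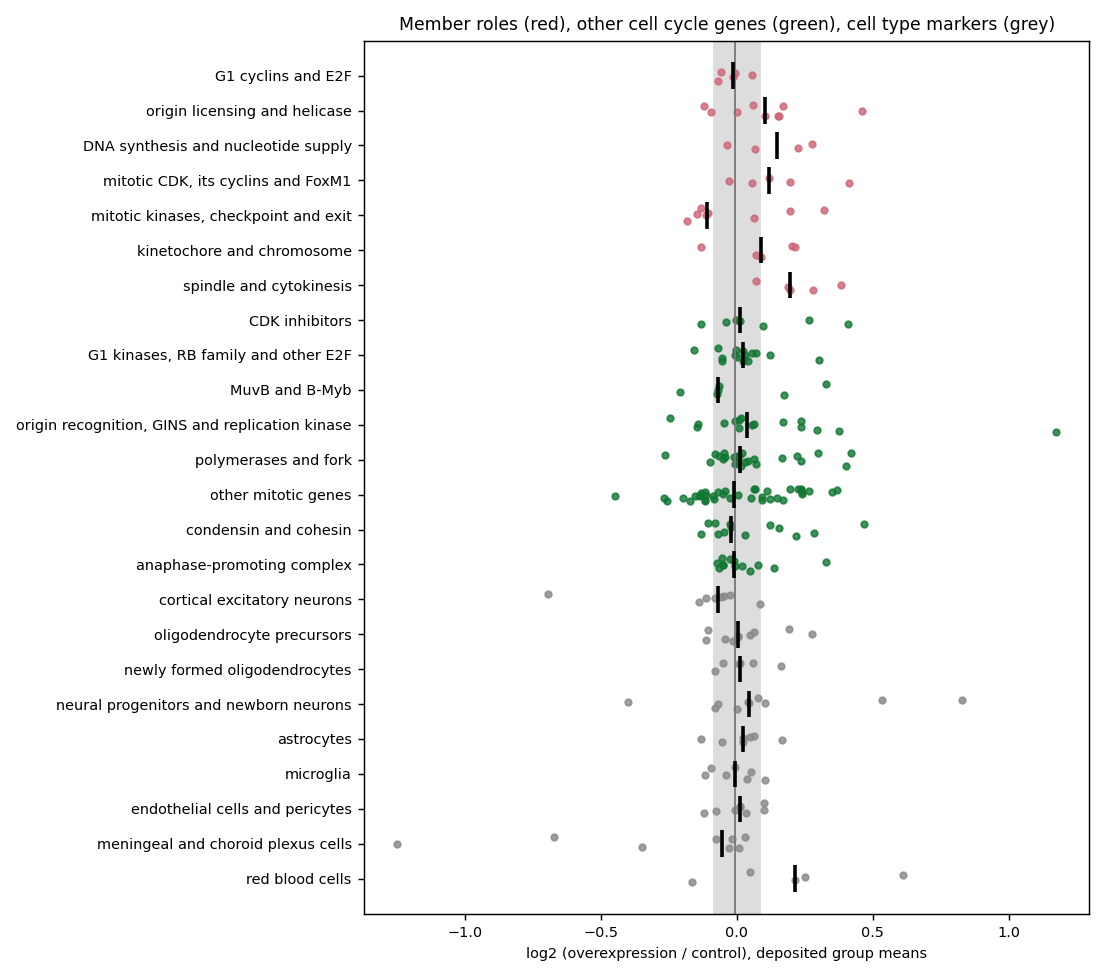
Log2 fold change from the deposited group means for each gene of the member roles (red), the other cell cycle lists (green) and the cell type markers (grey), with black bars for list medians. The grey band and line give the middle 50% and the median of all genes with a mean of at least 10. Spindle and cytokinesis genes all lie right of the line, and the single point near 1.2 is Gins1.

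Markers of cells that could divide in the tissue are given beside these values, and their part in them was not tested. Of 10 oligodendrocyte precursor markers 6 had the higher mean in overexpression cortex, their median log2 fold change was 0.00, and their summed group means were 16003 in control and 15871 in overexpression cortex. The 3 recovered members of that list, Bmp4, Neu4 and C1ql1, summed to 634, 675 and 678 in control libraries and to 717, 708 and 783 in overexpression libraries. These sums did not overlap between groups, but of the 3 genes only 1, Neu4, had groups without overlap by itself. Among all 9777 recovered genes 4.40% lay wholly higher in overexpression cortex. Neu4, a sialidase gene of this lineage, was at 302, 315 and 319.8 in control libraries and at 376, 349 and 411 in overexpression libraries. Its limma log2 fold change was 0.27 ± 0.10 (SE), with an adjusted p of 0.999. The abundant precursor marker Ptprz1 was at 6170.4 in control and 5984 in overexpression cortex. Newly formed oligodendrocyte markers (6) had a median of 0.01, astrocyte markers (7) of 0.02, microglia markers (7) of -0.01 and endothelial and pericyte markers (8) of 0.01. The summed group means of these lists were 16356 and 16671, 24177 and 24058, 5289 and 5384, and 9133 and 9183 in control and overexpression cortex. Their most abundant markers were Nfasc at 12313 and 12410.2, Slc1a3 at 11309 and 10887, Csf1r at 1597 and 1639, and Rgs5 at 4207 and 4191. Nfasc alone thus made up most of the newly formed oligodendrocyte sum. Which cells the RNA of each marker came from was not tested. Markers of neural progenitors and newborn neurons (10) had a median of 0.04 and summed to 4619 and 4706, with Dcx at 1686 and 1777. The 5 recovered ones summed to 407, 436 and 376 in control libraries and to 409, 402 and 384 in overexpression libraries. These sums overlapped, and 1 of the 5 genes lay wholly higher in overexpression cortex by itself. Red blood cell genes (5) had a median of 0.21 and summed to 2948 and 3127, with Hbb-bs at 1639 and 1694. Meningeal and choroid plexus markers (8) had a median of -0.05 and summed to 2557 and 2368, with Col1a2 at 1030 and 1010.2. Excitatory neuron markers (8) had a median of -0.07 and summed to 113406 and 107168. Among them Neurod6, the gene whose locus carries Nex-Cre, was at 1942 in control and 1199 in overexpression cortex, a log2 fold change of -0.70. The authors' deposited table gave it p = 5.04e-05 and an adjusted p of 0.760.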

How the data were processed

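Cortical RNA was sequenced in 6 libraries, 3 per group. Alignment used TopHat2 2.0.9 and Bowtie2 2.0.6, per the submitters' processing notes. Genome build, counter, strand setting and test were not given in the sources used here. For each gene and group the authors deposited 1 signal, an average of scaled reads. Per the file headers, the same table also holds the authors' p-value, adjusted p-value and log2 fold change, which matched log2 of the ratio of group means to within 4.93e-06 for these genes.

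Whole reads of 3 libraries were sought that give each mean to its 10 significant digits. All combinations were searched up to 400 in control and 150 in overexpression, and above that, up to 1000 and 450, those with every library within 2-fold of the mean. Exactly 1 combination was found for 98.74% of 23575 control and 99.36% of 21303 overexpression means. Scaling factors of control libraries were 0.982, 0.926 and 0.907, and those of overexpression libraries 1.23, 1.06 and 0.966. In test means made from known reads every single combination found was the right one (100.00%), among 22259 control and 19982 overexpression means. These reads were drawn with 1 fixed extra spread and matched with the same scaling factors that made them. A wider spread between libraries or an error in the factors was not tested. limma 3.58.1 (R 4.3.3, mean-variance trend) was fitted to log2(value + 1) of the 9777 recovered genes whose mean was 10 or more, with Benjamini-Hochberg adjustment over all of them. The added 1 understates differences of low genes. Symbols were matched through a table of gene names for 46488 rows. Exon lengths are from GENCODE M21, which may not be the authors' annotation.

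The genes and lists were chosen with earlier results of these data known. The rule for named genes covered all 41, by library for the 8 with the highest means and for those with an unadjusted p under 0.05 or groups without overlap, and library values of the other recovered genes were added. In other lists genes with the highest mean or an unadjusted p under 0.05 were named. Of the promoters shown, Mcm6, Ccnb2 and Mki67 have the highest mean of their role among genes with a promoter found and a single entry. Pcna, Bub1b, Ccne1 and Nusap1 also do and are not shown, Ccne1 and Nusap1 having no searched word. The other 3 shown are from genes whose groups did not overlap. Counts under other settings are in the closing section. limma and the matching of reads were tested on simulated data.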

Additional observations from a re-analysis of the deposited data

How the results depend on the processing

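No cell cycle gene was called by limma at an adjusted p under 0.05 in any of the 12 alternatives, and the lowest adjusted p of a gene over them was 0.918, without a filter on the mean. The number of genes with an unadjusted limma p under 0.05 was 0 with all libraries, 2 without the mean-variance trend (Cdc45 and Kif11), 1 without a filter on the mean and 1 with a mean of at least 50 (both Kif11). With 1 library left out it ranged from 0 to 2, with 2 without control C (Cdc45 and Tyms), 2 without overexpression B (Kif11 and Mki67) and 1 without control B (Kif11). The number of genes with every overexpression library above every control library went from 4 to 2 with median ratio scaling, for which the share over all recovered genes was not counted. The authors' test gave 0 genes also when adjusted over the genes at 10 or more. The median log2 fold change of the 41 genes was 0.070, and between 0.054 for genes at 100 or more and 0.102 with group values divided by the group's total. With 1 library left out the median of the 38 recovered genes ranged from 0.028 to 0.158, and the number with a higher overexpression mean, 25 with all libraries, from 20 to 28. Of the 41 genes 30 were higher with totals as the scale and 28 were above the median of all genes at 10 or more. The reason for these shifts was not tested. No paired analysis was possible because the recovered libraries carry no replicate number. Intervals were wider for the 14 genes with a mean under 50, reaching a median of 1.54-fold to either side, than for those at 100 or more, at 1.26-fold.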
